A study of Mus musculus with 2 samples.

Results

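The 10 genes described here form the core of antigen presentation by the major histocompatibility complex (MHC). They were taken by gene symbol from the deposited table of read counts and FPKM, and all 10 were found among its 23652 rows. The genes were grouped by role. The class I group held 3 genes, B2m, H2-K1 and H2-D1, the class II group held 4 genes, H2-Aa, H2-Ab1, H2-Eb1 and Cd74, and the peptide supply group held 3 genes, Psmb8, Psmb9 and Tap1. The samples were pancreatic islets of mice at the age of 7 months. The knockout library came from mice with a floxed Srsf2 gene and the Ins2-Cre transgene, in which the insulin 2 promoter drives the recombinase, and the control library came from mice with the same floxed gene and no Cre. Srsf2, also called SC35, encodes a splicing factor of the serine and arginine rich family. With 1 library in each group there was no replicate check, no p-value was computed and every difference below is one between these libraries. How many mice stand behind each library, and their sex, is not stated in the labels. Whole islets also hold cells in which the insulin promoter is silent, so Cre is not meant to act in all of the cells sampled.

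MHC class I molecules are carried by nearly all nucleated cells and consist of a polymorphic heavy chain, in the mouse H2-K1 or H2-D1 among others, bound to the small invariant chain B2m (beta-2-microglobulin). They display peptides cut in the cytosol by the proteasome, whose interferon-inducible subunits are Psmb8 and Psmb9, and carried into the endoplasmic reticulum by the transporter made of Tap1 and Tap2. MHC class II molecules, pairs of an alpha and a beta chain such as H2-Aa with H2-Ab1, are normally carried by B cells, macrophages and dendritic cells, and Cd74, the invariant chain, escorts them to the compartment where they take up peptides. In islets, class I display is studied as the signal by which cytotoxic T cells recognise beta cells, and class II display is mostly a property of the resident immune cells.

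The knockout library held 15098659 reads and the control library 17412828 reads. A gene was called measured when its mean FPKM over both libraries was at least 1, which left 10666 genes. Differences are given as log2(FPKM + 0.5), knockout minus control, a scale that understates the differences of low genes. The median of the measured genes was -0.36 on that scale, so differences of B2m, Cd74, H2-K1 and H2-D1, and of other genes where it turns the direction, are also given relative to that median. The library labelled knockout held 1209 reads of Srsf2 (22.6 FPKM) and the control library held 2296 reads (37.2 FPKM). A list of 24 acinar genes, markers of the exocrine pancreas, took 16.3% of the reads of the knockout library and 1.89% of those of the control library, while 12 islet endocrine markers took 25.4% and 25.7%. Because islets were sequenced in bulk, fewer cells of a type and less RNA per cell cannot be told apart for any gene named here.

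B2m and Cd74 were the abundant genes of the 10, and both were higher in the knockout library (plot of reads per gene). B2m, the class I light chain, had 2435 reads in the knockout library and 1933 reads in the control library. Scaled to gene length and library total, its level was 188 FPKM in the knockout library and 129 FPKM in the control library, a ratio of 1.45 with a 95% counting interval of 1.37 to 1.54. Cd74, the class II invariant chain, had 2861 reads in the knockout library and 2205 reads in the control library. Its level was 134 FPKM in the knockout library and 89.5 FPKM in the control library, a ratio of 1.496 with an interval of 1.42 to 1.58. These intervals are exact binomial (Clopper-Pearson) intervals of the reads and cover counting error only, not the spread between mice.

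**Figure D1:**
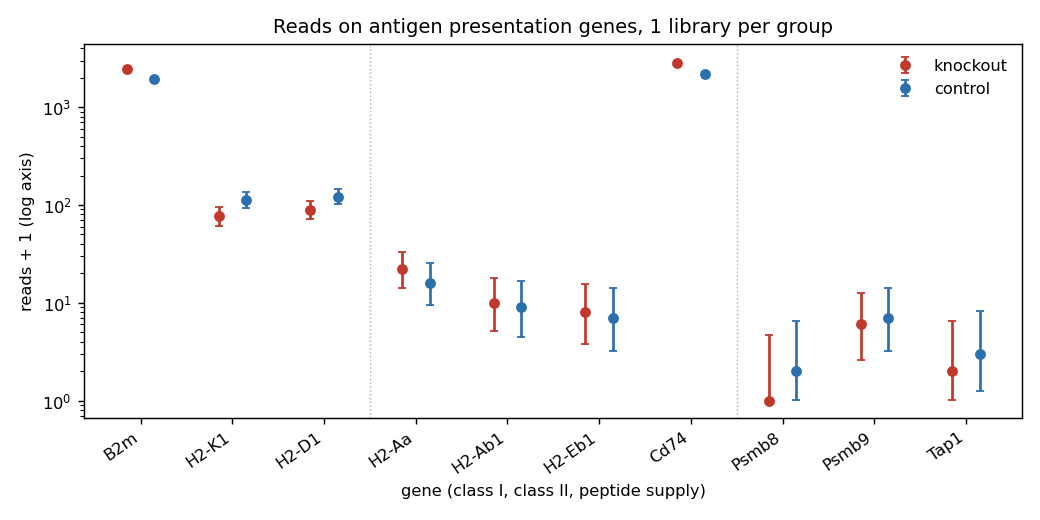
Reads of each of the 10 genes plus 1, on a log axis, in the knockout library (red, left of each pair) and the control library (blue), with bars for the exact 95% Poisson interval of each count. B2m and Cd74 lie between 1933 and 2861 reads, and the other 8 genes lie at 121 reads or fewer in both libraries.

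No member of the set differed by 2-fold or more on the log2(FPKM + 0.5) scale, 0 of the 4 that reached a mean FPKM of 1 and 0 of the other 6. Among the measured genes, 1.57% were higher by 2-fold or more in the knockout library and 6.32% were lower by that much, a split that became 3.22% higher and 1.36% lower once the median was subtracted. B2m differed by 0.54 on the log2 scale and by 0.90 relative to the median of the measured genes, and 4.16% of the measured genes had a larger positive difference. Cd74 differed by 0.58, or by 0.94 relative to the median, and 3.74% of the measured genes had a larger one. Past 1.5-fold relative to the median, 11.3% of the measured genes were higher in the knockout library and 8.1% were lower. B2m and Cd74 were among the higher ones, and H2-K1 and H2-D1 were in neither group.

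Gene length moved with these differences. The deposited B2m length is 858 bases, and the 532 measured genes in its length class were higher in the knockout library by a median of 0.29. With that median removed, the difference of B2m was 0.24, and 26.3% of the genes of its length class had a larger one. Cd74, at 1415 bases, lay in a class whose median was -0.01, and its difference with that median removed was 0.59, passed by 8.26% of the class. The part of gene length in the B2m difference was not tested beyond that subtraction.

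The other 8 genes all lie in the MHC on chromosome 17, and all 8 had far fewer reads than B2m or Cd74 in both libraries. Only H2-K1 and H2-D1 among them reached the minimum for a measured gene. Together the 8 genes held 207 reads in the knockout library and 270 reads in the control library, fewer than a single gene such as B2m. By FPKM, the order of all 10 genes was nearly the same in both libraries. It ran from B2m at the top through Cd74, H2-D1, H2-K1, H2-Aa, H2-Ab1 and Psmb9 to H2-Eb1. Only Tap1 and Psmb8 at the bottom exchanged places. Adjacent genes from H2-Aa downwards had overlapping Poisson intervals in each library.

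What these 8 genes shared beside their position was a second kind of row in the deposited table. Each of the 8 had 3 further rows, named by the symbol with a numbered suffix and placed on alternate or unplaced scaffolds of the mouse assembly, called copy rows here. B2m, on chromosome 2, and Cd74, on chromosome 18, had none. The copy rows of the 8 genes held 27 reads in the knockout library and 74 reads in the control library. Most of these belonged to 1 copy row of H2-K1, with 24 reads in the knockout library and 62 reads in the control library.

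Low levels were common among genes with copy rows across the table. Of 1113 chromosome rows with a copy row, 44.6% were at 0 reads in both libraries and 18.8% were measured. Of 20812 chromosome rows without one, 26.1% were at 0 and 50.1% were measured. On chromosome 17, 13.1% of the 283 genes with copy rows were measured, against 55.7% of the 769 genes without. Genes that every cell uses were among the empty ones. Psmb6, a catalytic subunit of the constitutive proteasome with 1 copy row, was listed at 0 reads in both libraries, while the other 13 core subunits, all without copy rows, lay between 18.9 and 146 FPKM in the knockout library and between 20.2 and 160 FPKM in the control library. Its copy row held 8 reads in the knockout library and 15 reads in the control library.

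The other genes in the stretch of chromosome 17 from H2-K1 to H2-D1 (GRCm38, chr17:33996012-35267497) were nearly empty. All 76 other genes listed there had copy rows, and 1 of the 76 was measured, the gene BC051142 at 1.44 FPKM in the knockout library and 1.22 FPKM in the control library. The 76 genes together held 231 reads in the knockout library and 294 reads in the control library. Brd2, a chromatin reader expressed in most tissues and named after its value was seen, had 0 reads in the knockout library and 7 reads in the control library. Bag6, a chaperone of membrane proteins chosen in the same way, had 20 reads in the knockout library and 2 reads in the control library. Upstream of the stretch, Hnrnpm, a splicing regulator without copy rows, had 1254 reads in the knockout library and 2873 reads in the control library. Downstream, Ddr1, a collagen receptor with 2 copy rows, had 2129 reads in the knockout library and 3104 reads in the control library, so a copy row did not go with a low count in every gene. The setting by which reads with several equal alignments were placed or dropped is not stated in the labels. The part of the copy rows in the low values of the 8 genes was not tested, and their FPKM are given below as what the table lists.

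**Figure D2:**
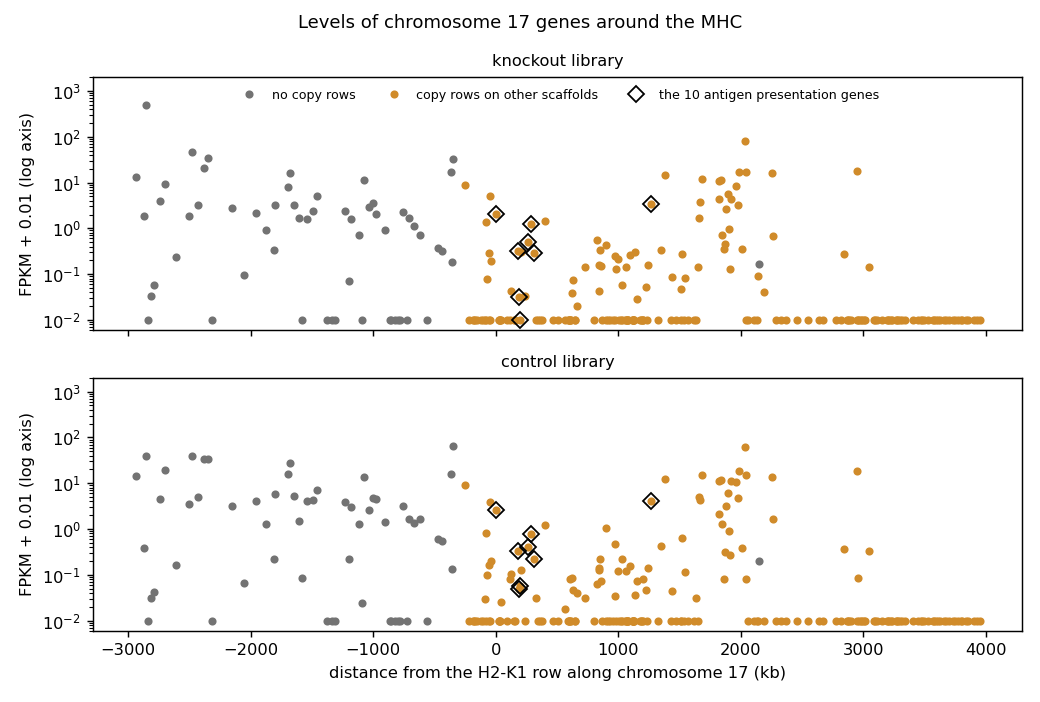
FPKM plus 0.01 on a log axis of the genes listed around the MHC on chromosome 17, against the distance of each row from that of H2-K1, in the knockout library (top) and the control library (bottom). Grey points have no copy rows, orange points have copy rows on other scaffolds, diamonds are the members of the set on this chromosome, and points on the lowest line have 0 reads. The diamonds lie at or below 3.36 FPKM in the knockout library and 4.003 FPKM in the control library, among orange points that are mostly near 0.

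H2-K1 and H2-D1, the classical class I heavy chains, were a little lower in the knockout library as deposited and near the median of the measured genes once that was subtracted. H2-K1 had 76 reads in the knockout library and 111 reads in the control library, or 2.05 and 2.60 FPKM. Its ratio was 0.790 with an interval of 0.582 to 1.07, and its difference relative to the median was 0.08. H2-D1 had 88 reads in the knockout library and 121 reads in the control library, or 3.36 and 4.003 FPKM. Its ratio was 0.839 with an interval of 0.630 to 1.11, and its difference relative to the median was 0.14. Both intervals include 1, so a difference was not detectable at this depth. Adding the reads of the copy rows was an alternative chosen after the data were seen. H2-K1 then had 100 reads in the knockout library and 173 reads in the control library. Its ratio was 0.667 with an interval of 0.516 to 0.858, which excludes 1 and includes the median ratio of the measured genes, 0.757. H2-D1 then had a ratio of 0.815 with an interval of 0.614 to 1.08.

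The level of B2m relative to the 2 heavy chains was high in both libraries. B2m FPKM were 34.8 times the summed FPKM of H2-K1 and H2-D1 in the knockout library and 19.6 times in the control library. The ratio of B2m was 1.84 times that of H2-K1, with a counting interval of 1.35 to 2.51, and 1.73 times that of H2-D1, with an interval of 1.30 to 2.32. Both intervals lie above 1. With the median of each gene's length class removed, the differences were 0.24 for B2m, -0.02 for H2-K1 and -0.11 for H2-D1, so the gap between light and heavy chains was smaller and lay below the lower limit of each counting interval.

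The heavy chains share part of their sequence. The coding sequences of H2-K1 (1107 bases) and H2-D1 (1086 bases) in the GENCODE M21 transcripts of GRCm38 were identical in 88.3% of 1116 aligned columns. Of all 50-base words in the H2-K1 transcript, 8.79% also occur in transcripts of other genes, and for H2-D1 the share was 14.3%, with H2-Q genes among the partners of both. For B2m, Cd74, the class II chains, Psmb8 and Psmb9 it was 0%, and for Tap1 0.861%, shared with Tap2. These shares count no copy on an alternate scaffold. The longest stretch identical in both genes has 91 bases, positions 738 to 828 of the H2-K1 coding sequence and 747 to 837 of that of H2-D1, and it is shown because no read inside it can be assigned to either gene:
H2-K1 and H2-D1: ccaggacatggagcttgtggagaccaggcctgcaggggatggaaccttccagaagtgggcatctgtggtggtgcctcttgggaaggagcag
The ungapped window of 90 bases with the most differences holds 17 of them, in capitals below, at positions 480 to 569 of H2-K1 and 489 to 578 of H2-D1. It is shown as the part of the coding sequence where reads separate the genes best:
H2-K1: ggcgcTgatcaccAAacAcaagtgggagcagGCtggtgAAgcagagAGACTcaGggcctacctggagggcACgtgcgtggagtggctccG
H2-D1: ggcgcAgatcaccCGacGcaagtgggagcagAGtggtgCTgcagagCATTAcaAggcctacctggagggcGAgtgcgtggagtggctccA

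Among 13 other class I heavy chain genes, most of them nonclassical or restricted in their expression, 5 were measured and none was past 2-fold. H2-T23, which encodes the nonclassical molecule Qa-1, was the most abundant, with 1599 reads (80.4 FPKM) in the knockout library and 1410 reads (61.5 FPKM) in the control library. Its ratio was 1.31 with an interval of 1.22 to 1.41. The FPKM of H2-T23 were 14.9 times those of H2-K1 and H2-D1 summed in the knockout library and 9.32 times in the control library. H2-T22 had 770 reads in the knockout library and 827 reads in the control library, and H2-Q4 had 391 and 395 reads. H2-Q1, H2-Q6, H2-Q10 and H2-M3, all with 3 copy rows, were at 0 reads in both libraries. H2-T23 and H2-T22 have 2 copy rows each, and 28.8% and 44.7% of their 50-base words occur in other genes, so their counts are uncertain as to which gene the reads came from.

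The class II chains were listed at low levels in both libraries, and their ratios had wide intervals. H2-Aa, the alpha chain of I-A, had 21 reads (1.23 FPKM) in the knockout library and 15 reads (0.764 FPKM) in the control library, a ratio of 1.61 with an interval of 0.793 to 3.37. H2-Ab1, its beta chain, had 9 reads (0.4996 FPKM) in the knockout library and 8 reads (0.385 FPKM) in the control library, a ratio of 1.30 with an interval of 0.444 to 3.86. H2-Eb1, the beta chain of I-E, had 7 reads (0.278 FPKM) in the knockout library and 6 reads (0.206 FPKM) in the control library, a ratio of 1.35 with an interval of 0.387 to 4.85. All 3 intervals include 1, and H2-Aa, with a mean FPKM of 0.998, fell just short of the minimum for a measured gene. Cd74 had 109 times the FPKM of H2-Aa in the knockout library and 117 times in the control library. Against the FPKM of the 3 chains summed, Cd74 stood at 66.6 times in the knockout library and 66.03 times in the control library. The ratio of Cd74 was 0.927 times that of H2-Aa, with an interval of 0.443 to 1.89.

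Of the peptide supply genes, too few reads were listed to give a difference in either direction. Psmb9, an immunoproteasome subunit, had 5 reads (0.310 FPKM) in the knockout library and 6 reads (0.323 FPKM) in the control library, a ratio of 0.961 with an interval of 0.232 to 3.78. Tap1, a subunit of the peptide transporter, had 1 read in the knockout library and 2 reads in the control library, a ratio of 0.577 with an interval of 0.00977 to 11.1. Psmb8, another immunoproteasome subunit, had 0 reads in the knockout library and 1 read in the control library. A count of 0 allows up to 3 reads, or 0.162 FPKM for Psmb8 in the knockout library, so no ratio is given. Psmb10, the remaining inducible subunit of the immunoproteasome, lies outside chromosome 17 and has no copy rows. It had 461 reads (24.04 FPKM) in the knockout library and 375 reads (16.96 FPKM) in the control library, a ratio of 1.42 with an interval of 1.23 to 1.63. Relative to Psmb7, the constitutive subunit whose place it takes, Psmb10 stood at 0.330 by FPKM in the knockout library and 0.211 in the control library.

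The contrast of class II with class I depended on which gene stood for class I (plot of ratios). By the median over all genes of a class, measured or not, class I differed by -0.22 on the log2(FPKM + 0.5) scale and class II by 0.32, so that class II exceeded class I by 0.54. Of the class II genes only Cd74, at 0.58, was measured. The median of the peptide supply genes was -0.04, from 6 reads or fewer for each gene and library. By summed FPKM, which B2m and Cd74 dominate, class I stood at 193 in the knockout library and 136 in the control library, a ratio of 1.42, and class II at 136 and 90.8, a ratio of 1.496. By the single abundant gene of each class, the ratio of Cd74 was 1.03 times that of B2m, with an interval of 0.949 to 1.12. Cd74 stood at 0.712 times the FPKM of B2m in the knockout library and 0.692 times in the control library. The ratio of H2-Aa was 2.04 times that of H2-K1, with an interval of 0.934 to 4.55, and 1.93 times that of H2-D1, with an interval of 0.887 to 4.25. Of the 6 pairs of genes compared, the interval lay above 1 for B2m against each heavy chain, genes of the same class, and included 1 for the other 4. That separation also divides the gene without copy rows from the genes with them.

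**Figure D3:**
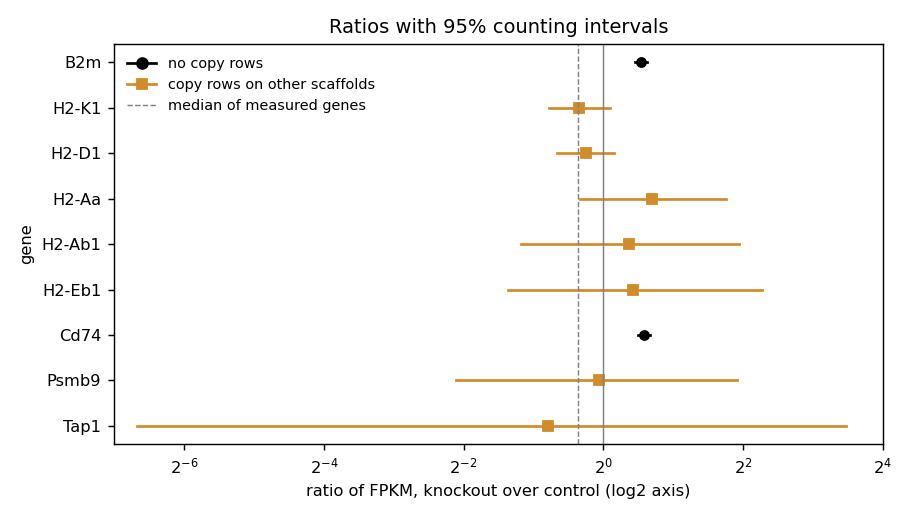
Ratio of FPKM, knockout over control, on a log2 axis, with 95% counting intervals, for 9 of the 10 genes (Psmb8, at 0 reads in the knockout library, has no ratio). The solid line marks a ratio of 1 and the dashed line the median ratio of all measured genes. B2m (1.45) and Cd74 (1.496), in black, lie right of both lines, and the intervals of the 7 orange genes, which have copy rows, all include 1.

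Of 11 genes that load and regulate class I, 9 were measured and 0 were past 2-fold. Relative to the median, 4 of the 9 were at least 1.5-fold higher and 0 were lower by that much. Of all measured genes, 11.3% and 8.1% were. The median relative difference of the 9 was 0.40. With the median of each gene's length class removed instead, it was 0.27. Of those 4 genes, only Tapbp then stayed past 1.5-fold, at 0.85, with Psmb10 at 0.43, Calr at 0.41 and Psme1 at 0.26. Calr (calreticulin, a chaperone of the loading complex) stood at 375 FPKM in the knockout library and 311 FPKM in the control library. Tapbp, the tapasin gene, which holds the loading complex to the transporter, stood at 1.35 FPKM in the knockout library and 0.794 FPKM in the control library, from 56 and 38 reads. It lies in the MHC and has 3 copy rows, as has Tap2, with 11 reads in the knockout library and 5 reads in the control library. Tapbpl, a tapasin relative that edits the peptides, was lower, at 14.7 FPKM in the knockout library and 23.3 FPKM in the control library. Psme1 and Psme2, the paired subunits of the proteasome activator PA28, had ratios of 1.25 and 0.845, and relative to the median they differed by 0.69 and 0.12. Nlrc5, the transactivator of class I genes, had 25 reads in the knockout library and 18 reads in the control library.

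Of 15 genes that load or regulate class II, 6 were measured and 0 were past 2-fold. Their median relative difference was 0.29. Ciita, the master transactivator of class II genes, had 39 reads in the knockout library and 23 reads in the control library, a ratio of 1.96 with an interval of 1.14 to 3.43. Ctss, the cathepsin that trims Cd74 in antigen presenting cells, had 605 reads (27.7 FPKM) in the knockout library and 592 reads (23.5 FPKM) in the control library. Rfx5, a subunit of the factor that binds class II promoters, was lower, with 215 reads in the knockout library and 530 reads in the control library. Its relative difference was -0.54. Genes of its length class had a median difference of -0.68, and with that removed the difference of Rfx5 was -0.22. Among the 8 genes of this list with copy rows, H2-DMb1, H2-DMb2, H2-Oa, H2-Ea-ps and Ifi30 were at 0 reads in both libraries. Ifi30 encodes the thiol reductase that unfolds antigens for class II loading, and its copy row held 99 reads in the knockout library and 89 reads in the control library. Of 5 costimulatory genes 2 were measured, Cd274 (PD-L1) at 3.33 FPKM in the knockout library and 4.32 FPKM in the control library with a relative difference of 0.03, and Icosl at 1.74 and 1.48 FPKM.

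Interferons induce most of the 10 genes, so the levels of interferon genes are given beside them. Of 14 signalling genes 12 were measured, 1 of them past 2-fold, with a median relative difference of 0.11. That gene was Irf8, a factor of B cells and myeloid cells named because it was the only one, with 147 reads in the knockout library and 56 reads in the control library. Of the 14 signalling genes, 4 had a higher FPKM in the knockout library and 10 a lower one. The counting interval lay above 1 for 3 of them and below 1 for 8. The median ratio of all measured genes was itself below 1, at 0.757. For this list and those below, the share of all measured genes with such an interval was not computed. Irf1, a transcription factor of the interferon response, stood at 9.39 FPKM in the knockout library and 12.02 FPKM in the control library, a relative difference of 0.02. Of 19 interferon response genes 10 were measured, 0 were past 2-fold as deposited, and the median relative difference was 0.61. Relative to the median of the measured genes, 2 of the 10 were past 2-fold and 5 were past 1.5-fold, all higher in the knockout library. Of all measured genes, 3.22% and 11.3% were higher by that much. With the median of each gene's length class removed instead, the median difference of the measured response genes was 0.33. Among all 19, 13 had a higher FPKM in the knockout library and 6 a lower one. The counting interval lay above 1 for 7 of the 19 and below 1 for 2. Cxcl9 and Cxcl10, chemokine genes that are not counted among the 10 and were named after their values were seen, also had more reads there. Cxcl9 had 32 reads in the knockout library and 3 reads in the control library, and Cxcl10 had 27 and 0 reads. The part of interferon in the B2m and Cd74 differences was not tested.

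**Figure D4:**
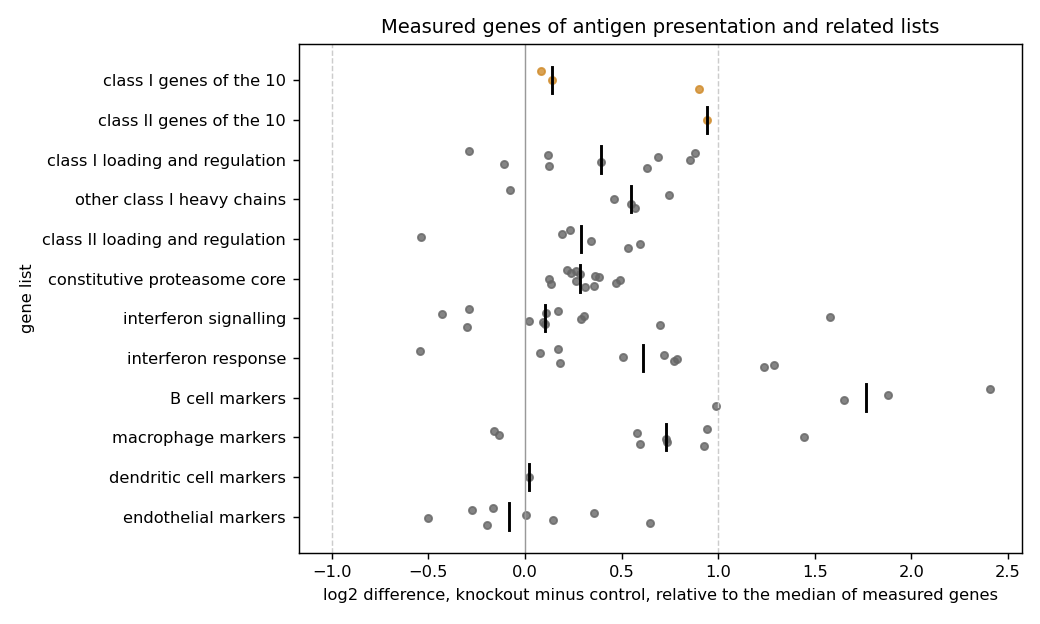
Log2 differences, knockout minus control, relative to the median of the measured genes, for the measured genes of each list, with a black line at each list's median. Dashed lines mark 2-fold. The class I genes of the set are spread from 0.08 to 0.90, and of the lists plotted the B cell markers have the highest median, 1.77.

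Among markers of the immune cells that carry class II, those of B cells were all higher in the knockout library. Macrophage markers were mostly higher, and dendritic cell markers went both ways. All 10 B cell markers had a higher FPKM in the knockout library, and for 9 of the 10 the counting interval lay above 1. No share of all measured genes with such an interval was computed for these marker lists. Relative to the median, 3 of the 4 measured B cell markers were at least 2-fold higher, against 3.22% of all measured genes. The FPKM of the 10 summed to 66.1 in the knockout library and 24.8 in the control library, from 1420 and 578 reads. Cd79a, a chain of the B cell receptor, had 770 reads in the knockout library and 358 reads in the control library, and Ms4a1, which encodes CD20, had 170 and 28 reads. Of the 13 macrophage markers, 9 were higher and 3 lower, and the counting interval lay above 1 for 9 and below 1 for 2. Relative to the median, 6 of the 9 measured ones were at least 1.5-fold higher and 0 were lower by that much. Of all measured genes, 11.3% were higher and 8.1% were lower by that much. The median relative difference of the measured macrophage markers was 0.73. With the median of each gene's length class removed instead, it was 0.28. The FPKM of the 13 summed to 174 in the knockout library and 149 in the control library. C1qa, a complement subunit made by tissue macrophages, stood at 72.0 FPKM in the knockout library and 61.1 FPKM in the control library, and Aif1, which has 3 copy rows, was at 0 reads in both. Of the 10 dendritic cell markers, 5 were higher and 4 lower, and the counting interval lay above 1 for 0 and below 1 for 1. The 10 summed to 3.25 FPKM in the knockout library and 4.18 FPKM in the control library, with Clec10a, which has 1 copy row, at 0 in both. Their summed reads gave a ratio of 0.939 with an interval of 0.785 to 1.12. The 11 T and NK cell markers summed to 4.40 FPKM in the knockout library and 2.52 FPKM in the control library, with Cd2, which has 1 copy row, at 0 in both. The acinar list moved too, with all 23 measured acinar genes past 2-fold and higher in the knockout library. The part of B cells, macrophages or exocrine tissue in the Cd74 and B2m values was not tested.

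Upstream sequences are shown for H2-K1 and H2-D1 because their ratios lay close together. The 250 bases before each start were taken from RefSeq (GRCm38.p6). Capitals mark CCAAT and TGACG on either strand, short boxes that recur in MHC promoters:
H2-K1, chr17:34000334-34000583, minus strand: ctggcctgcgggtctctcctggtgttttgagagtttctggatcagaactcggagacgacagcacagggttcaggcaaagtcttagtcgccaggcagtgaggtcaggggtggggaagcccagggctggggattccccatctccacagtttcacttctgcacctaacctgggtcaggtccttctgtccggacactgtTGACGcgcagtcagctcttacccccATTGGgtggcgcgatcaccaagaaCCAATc
H2-D1, chr17:35262844-35263093, plus strand: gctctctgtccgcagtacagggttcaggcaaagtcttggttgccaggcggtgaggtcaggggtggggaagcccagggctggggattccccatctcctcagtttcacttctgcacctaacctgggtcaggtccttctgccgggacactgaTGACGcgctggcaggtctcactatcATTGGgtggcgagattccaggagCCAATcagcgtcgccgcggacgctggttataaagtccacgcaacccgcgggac
Both sequences hold TGACG, then CCAAT on the reverse strand, then CCAAT on the forward strand. RefSeq gave 2 windows for H2-K1, and the stretch shown precedes the start of window 2. In window 1 the forward CCAAT lies at position 8, past the start. The H2-K1 stretch also lies inside the deposited row of the gene, which reaches position 34000619. TGACG was found in 20.8% of 32851 RefSeq windows of 300 bases, which also take in the first 50 bases of each transcript, and CCAAT in 37.4%. B2m, H2-Aa, Psmb9 and Tap1 hold both in their windows, H2-Eb1 holds CCAAT, and the Psmb8 window holds neither. The windows of Psmb9 and Tap1, genes on opposite strands with 225 bases between them, overlap by 275 bases. A match of letters is a description and no measure of binding.

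The authors' deposited table of DESeq results listed all 10 genes, and none had an adjusted p below 0.05. Of its 16528 genes, 82 did. In the authors' deposited table the fold of Cd74 was 1.95 and that of B2m 1.89, with an adjusted p of 1 for every gene of the set. Its folds for the heavy chains were 1.03 for H2-K1 and 1.09 for H2-D1. For the class II chains they were 2.10 for H2-Aa, past 2-fold, 1.69 for H2-Ab1 and 1.75 for H2-Eb1. For the peptide supply genes they were 1.25 for Psmb9, 0.751 for Tap1 and 0 for Psmb8. These 6 genes hold 21 reads or fewer in each library. That table also rests on 1 library in each group.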

How the data were processed

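RNA from islets was sequenced in 1 library for each genotype. The build was mm10 (GRCm38) and the tools were DESeq and Bowtie2 2.4.2, per the submitters' processing notes; they name neither the counting tool nor how reads with several alignments were treated. The authors deposited whole-number read counts and FPKM for each gene, with gene length. All 23652 FPKM values of each library were recomputed from the count, the length and the sum of the counts. The authors' deposited DESeq table holds normalised counts (a scaled signal), fold, log2 fold change and p-values. The 10 genes and the lists were chosen with earlier results of these data known. Genes named were all 10 members, any gene of the presentation lists, and up to 4 genes of each other list, apart from those stated. Differences are log2(FPKM + 0.5), over genes whose FPKM averaged 1 or more for counts and lists, and over all members for the class medians. Since each group has 1 library, no count test was run. For ratios, 95% intervals are conditional binomial ones, exact (Clopper-Pearson). Word sharing used GENCODE M21 transcripts. RefSeq promoter windows were examined for 8 of the 10 genes, and none was examined for H2-Ab1 and Cd74. Python 3.11.15, SciPy 1.17.1 and Biopython 1.88 were used. Other scalings, pseudocounts, minimums and size rules were tried, and 2 alternatives on copy rows were added after the data were seen.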

Additional observations from a re-analysis of the deposited data

How the results depend on the processing

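No paired analysis was possible because each group holds 1 library with no replicate number, and for the same reason no replicate could be left out. Class II minus class I stayed positive in all 9 settings that gave a value, between 0.04 and 0.69. All settings reuse the same libraries, so a constant sign is no replicate check. At 0.04 only Cd74 and B2m were left, and the interval of that pair, 0.949 to 1.12, includes 1. The class I median of -0.22 became 0.13 when scaled by the median ratio and 0.11 by the authors' normalised counts, with all its genes kept. It was -0.02 with a total without the acinar list and -0.02 with the length trend removed. It became 0.54 with a mean FPKM of at least 5 and also with genes without copy rows only, since B2m was then its only gene. Peptide supply gave no value under that minimum of 5 FPKM, where no gene was left. B2m lay between 0.24 and 0.94 and Cd74 between 0.58 and 0.98, positive in 9 of 9 settings each. H2-K1 ranged from -0.58 to 0.05 and H2-D1 from -0.26 to 0.13, positive in 2 of 7 settings each, those that scale by the median ratio or by the authors' normalised counts. Of 74 values for single genes, 67 stayed within their counting interval, 7 moved and 0 reversed beyond it. All 7 belonged to B2m or Cd74, whose intervals are narrow. Both moved under each other scaling and with a total without the acinar list, and B2m also with the length trend removed. The other genes have wider intervals, so their values could shift further without counting as moved.

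Over all genes, the 2-fold rule gave 167 higher and 674 lower as deposited. Scaling by the median ratio gave 371 higher and 164 lower, the authors' normalised counts 337 and 158, and a total without the acinar list 258 and 286. Removing the length trend gave 214 higher and 113 lower. A mean FPKM of at least 5 gave 92 higher and 408 lower, and a 1.5-fold rule 394 and 3160. Of the 10 genes, 6 hold 21 reads or fewer in each library, so their counting intervals are wide.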
